A study of Mus musculus with 12 samples.

Results

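The comparison of colon RNA from DSS mice given the high dose of Banxia Xiexin Decoction with that from DSS mice given none covered 6 of the 12 libraries of the series, and its members were the 19 Ensembl features listed in all 6 files. These are 19 of the 912 features of the DSS files, 19 of the 95 features of the high-dose files and 19 of the 991 features listed anywhere in the series. The other 76 features of the high-dose files had no value in the DSS files and are given by level and by spread between libraries only. Dextran sulfate sodium (DSS) was given at 2.5% for 5 days, followed by 5 days of plain water, over 3 such cycles. The DSS group (3 libraries) had this course with water alone. The high-dose group, written BXD_H (3 libraries), had the same course with the decoction, a multi-herb preparation, at 15.2 g/kg per day. The Control group (3 libraries) had water without DSS, and a low-dose group (BXD_L, 3 libraries) had the course with 7.60 g/kg per day. All 4 groups are labelled mouse colon, and the labels name no strain, sex or age. The labels do not say that each library came from its own mouse, so the p-values reflect differences between libraries that could be technical.

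DSS is a sulfated sugar polymer. In drinking water it damages the epithelium of the colon, so that bacteria reach the tissue beneath, and it draws in neutrophils, monocytes and antibody-producing plasma cells. In repeated courses, epithelial repair and renewed injury alternate while plasma cells accumulate. Each plasma cell carries its own rearranged immunoglobulin heavy and light chain variable (V) segments, so the level of one segment in a tissue follows the expanded clones that happen to use it.

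Values were deposited as FPKM, the number of sequenced fragments of a gene divided by its length in kilobases and by the size of the library. The spacing of FPKM values of short genes corresponded to totals of 15400000 to 19200000 fragments in the DSS libraries and 12400000 to 18200000 in the BXD_H libraries, the lowest in BXD_H replicate 3, and the fragment numbers below follow from these totals. The description text of DSS replicate 3 names the low-dose treatment, against its title and treatment label, and that of Control replicate 3 names DSS. Both libraries stayed in the group of their title, and results without DSS replicate 3 are given beside those that changed. The lists hold a selection of genes made by an unstated rule, and all 19 features differed between the 2 group means by at least 2.07-fold. The number of differences below therefore describes the list and not the transcriptome. Had the rule used differences between these same libraries, the p-values below would be too small. Whether it did is not known, so they are given as a description of each feature. Of the colon epithelial markers examined, the high-dose files list Car1 and Scnn1g of 30 absorptive colonocyte genes and 0 of 20 goblet cell genes, and 0 of 9 general epithelial genes. Genes left off a list have no value, so the labelled tissue of the high-dose libraries could be checked on those 2 genes only. Car1, a carbonic anhydrase abundant in colonocytes, stood at 373 to 455 FPKM and Scnn1g at 1.34 to 2.53 FPKM. The DSS files list 7 of the absorptive colonocyte genes and 2 of the goblet cell genes, and their levels are not given here. In bulk RNA, more cells of a type and more RNA per cell cannot be told apart.

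Of the 19 features, 13 are protein-coding genes, 5 are V segments and 1, Ighg1, is an immunoglobulin constant gene. The V segments are shown by sequence because near-identical segments can exchange reads, which bears on the V segment values below. Coding sequences were taken from GENCODE release M21 (GRCm38, the build called mm10) and compared with all 218 V genes that have a coding sequence of at least 250 bases. A stretch of at most 300 bases that holds most of the differences is printed for each pair, and capitals mark bases at which a segment differs from its nearest other V gene. The stretch covers coding bases 1 to 300 of the kappa segments, 62 to 361 of Ighv7-4 and 62 to 359 of Ighv7-3. Igkv5-43 and Igkv8-28 are kappa segments of opposite direction in the comparison, and Ighv7-4 is the single heavy chain V segment among the 19 features.
Igkv5-43: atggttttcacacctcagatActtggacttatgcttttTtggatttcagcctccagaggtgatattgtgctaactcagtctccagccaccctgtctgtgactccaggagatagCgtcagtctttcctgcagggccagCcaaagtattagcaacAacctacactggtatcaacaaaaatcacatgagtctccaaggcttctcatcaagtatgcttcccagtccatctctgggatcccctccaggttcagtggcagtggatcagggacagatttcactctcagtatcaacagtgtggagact
Igkv5-45: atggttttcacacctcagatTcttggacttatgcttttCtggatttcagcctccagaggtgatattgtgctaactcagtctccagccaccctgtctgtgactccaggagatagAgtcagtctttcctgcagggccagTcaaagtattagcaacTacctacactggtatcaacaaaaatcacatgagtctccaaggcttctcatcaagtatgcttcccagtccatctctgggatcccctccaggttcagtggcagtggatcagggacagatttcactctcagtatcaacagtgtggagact
Igkv8-28: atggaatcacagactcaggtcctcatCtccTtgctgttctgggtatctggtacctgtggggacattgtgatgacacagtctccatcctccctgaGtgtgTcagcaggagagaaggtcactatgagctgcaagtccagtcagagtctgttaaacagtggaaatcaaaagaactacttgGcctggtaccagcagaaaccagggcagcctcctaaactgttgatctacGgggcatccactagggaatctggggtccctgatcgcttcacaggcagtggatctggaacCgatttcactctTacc
Igkv8-19: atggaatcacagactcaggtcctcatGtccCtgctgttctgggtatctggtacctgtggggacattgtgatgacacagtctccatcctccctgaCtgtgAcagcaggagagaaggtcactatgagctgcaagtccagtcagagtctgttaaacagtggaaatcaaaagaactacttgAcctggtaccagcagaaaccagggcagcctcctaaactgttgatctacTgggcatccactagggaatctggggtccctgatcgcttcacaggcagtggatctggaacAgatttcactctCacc
Ighv7-4: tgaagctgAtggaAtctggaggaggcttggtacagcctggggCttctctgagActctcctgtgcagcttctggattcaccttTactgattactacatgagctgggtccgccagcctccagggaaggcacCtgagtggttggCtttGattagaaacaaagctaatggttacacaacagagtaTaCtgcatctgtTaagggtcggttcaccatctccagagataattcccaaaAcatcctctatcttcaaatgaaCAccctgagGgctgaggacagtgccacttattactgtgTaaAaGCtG
Ighv7-3: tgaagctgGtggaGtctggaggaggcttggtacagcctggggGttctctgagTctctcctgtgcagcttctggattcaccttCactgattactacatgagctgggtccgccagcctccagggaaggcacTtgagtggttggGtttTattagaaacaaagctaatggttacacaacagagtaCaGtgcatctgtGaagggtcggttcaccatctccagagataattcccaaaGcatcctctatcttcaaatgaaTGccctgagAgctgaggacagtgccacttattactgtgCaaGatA
Igkv5-43 (chr6:69823355-69823943, minus strand) and Igkv5-45 differed by 5 edits over 347 coding bases, an identity of 98.6%, and shared an unbroken run of 193 bases. Igkv8-28 (chr6:70143593-70144166, minus strand) differed from Igkv8-19 by 9 edits (97.5% identity) and Igkv17-121 (chr6:68036812-68037318, plus strand) from Igkv17-127 by 9 edits (97.5% identity). Igkv14-126 (chr6:67896172-67896642, plus strand) and Ighv7-4 (chr12:114222788-114223328, minus strand) stood farther from their nearest relatives, at 91.5% identity to Igkv14-111 and 93.4% to Ighv7-3. The 3 kappa segments above 97% identity all had their nearest relative among the DSS features and not among the high-dose features. Igkv5-45 stood at 7.25, 30.5 and 44.7 FPKM in DSS replicates 1, 2 and 3. In the same order, Igkv17-127 stood at 29.6, 150.6 and 13.8 FPKM and Igkv8-19 at 39.6, 32.3 and 67.0 FPKM. Reads of all 3 relatives were thus counted in DSS. Levels of these relatives in the BXD_H libraries were not analysed here, and whether reads moved within any of the pairs was not tested.

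After a filter that required at least 1 FPKM in 3 or more of the 12 libraries, 17 of the 19 features were tested with limma on log2(FPKM + 1), and 16 passed an adjusted p of 0.05, which is 94.1% of those tested. Of the 17, 12 were higher in BXD_H (70.6%) and 4 were lower (23.5%). Kcnh3, called higher, passed the filter only through the BXD_H libraries, and Tgm5, called lower, only through the DSS libraries. These 17 are the whole of the comparison, so there is no wider background against which the shares could be read. Libraries of the 2 groups did not overlap for 18 of the 19 features (94.7%), with 14 above DSS (73.7%) and 4 below it (21.1%), and Hkdc1 was the exception. The median log2 difference was 0.97 over the 17 tested features. When each library was centred on the median of the 19 features, which removed a shift of 1.02 between the groups, 0 features were higher and 4 were lower past the threshold, so the rises are relative to the FPKM scale. Changes below are differences of log2(FPKM + 1), in which genes of low level appear to change less than they did, and are given with the standard error of the limma fit.

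**Figure D1:**
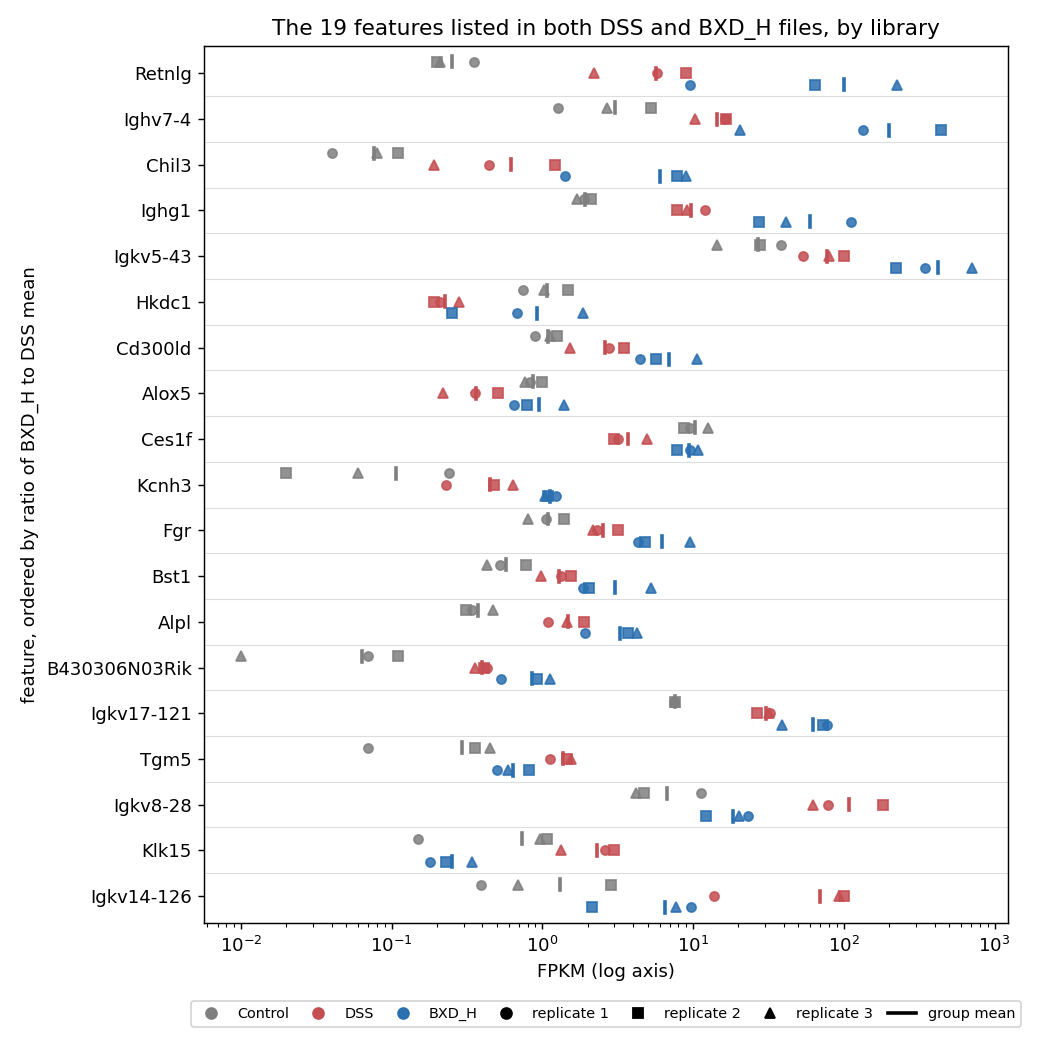
FPKM on a log axis of the 19 features listed in both the DSS and the BXD_H files, with Control beside them. Each point is a library, its shape the replicate number and its colour the group, and each vertical tick is a group mean (n = 3). BXD_H points lie to the right of all DSS points in 14 features and to the left in 4 (Tgm5, Igkv8-28, Klk15 and Igkv14-126).

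Retnlg and Chil3, the single tested members of the neutrophil list and of the macrophage and monocyte list, rose in BXD_H. Retnlg, a resistin-like secreted protein made by neutrophils, stood at 5.80, 8.92 and 2.20 FPKM in DSS replicates 1, 2 and 3 and at 9.50, 64.5 and 226 FPKM in the BXD_H replicates. The lowest BXD_H library thus stood just above the highest DSS library, and the BXD_H libraries spanned 23.8-fold. The rise was 3.17 (SE 0.86, limma adjusted p = 0.00652), with means 17.7-fold apart. Without BXD_H replicate 3 it was 2.13, with means 6.56-fold apart, and without BXD_H replicate 1 it was 4.35. Control libraries held 0.20 to 0.35 FPKM of Retnlg, which is 2 to 3 fragments each. Chil3, a chitinase-like lectin of neutrophils and alternatively activated macrophages, stood at 0.44, 1.22 and 0.19 FPKM in DSS, 6 to 33 fragments, and at 1.42, 7.78 and 8.98 FPKM in BXD_H. It rose by 1.93 (SE 0.45, limma adjusted p = 0.00376), and here BXD_H replicate 1 again lay close to DSS while replicates 2 and 3 stood well above it. Retnlg (ENSMUSG00000022651) lies on chromosome 16 from 48872621 to 48874496 and Chil3 (ENSMUSG00000040809) on chromosome 3 from 106147554 to 106167564.

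Of 4 further genes expressed in myeloid cells among others, all rose by less than Chil3. Fgr, a Src-family kinase of myeloid cells, stood at 2.30, 3.16 and 2.16 FPKM in DSS and at 4.30, 4.78 and 9.59 FPKM in BXD_H, a rise of 0.97 (SE 0.27, limma adjusted p = 0.00652). Cd300ld, a receptor of the CD300 family on myeloid cells, stood at 2.77, 3.48 and 1.52 FPKM in DSS and at 4.43, 5.69 and 10.6 FPKM in BXD_H, a rise of 1.10 (SE 0.30). In both genes the groups did not overlap, and BXD_H replicate 3 stood well above the other 2 BXD_H libraries. Alpl, the tissue-nonspecific alkaline phosphatase, also made by neutrophils, stood at 1.09, 1.88 and 1.45 FPKM in DSS and at 1.91, 3.69 and 4.25 FPKM in BXD_H (rise 0.76, SE 0.22, limma adjusted p = 0.00815). BXD_H replicate 1 and DSS replicate 2 nearly met. Bst1, the surface enzyme CD157 of stromal and myeloid cells, stood at 1.33, 1.56 and 0.98 FPKM in DSS and at 1.86, 2.04 and 5.27 FPKM in BXD_H (rise 0.74, SE 0.27, limma adjusted p = 0.0224). Its call was lost without BXD_H replicate 3 (0.37, adjusted p = 0.0663) and without DSS replicate 3 (0.63, adjusted p = 0.0754). Alox5, the 5-lipoxygenase of leukotriene synthesis, did not pass the low-value filter and was not tested. It is made by myeloid cells and stands in the enteroendocrine and tuft cell list here. It stood at 0.36, 0.51 and 0.22 FPKM in DSS, at 0.65, 0.79 and 1.39 FPKM in BXD_H and at 0.77 to 0.99 FPKM in Control, with all BXD_H libraries above all DSS libraries. Unlike the 6 genes above, its Control libraries stood above DSS.

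Of the 16 genes of the neutrophil list, 7 were listed in the DSS files, 3 in the high-dose files (Retnlg, Mmp8 and Ngp) and 1 in both, and that one, Retnlg, was tested and rose. The macrophage and monocyte list had 8 of 22 genes in the DSS files and 1, Chil3, in the high-dose files. Neither list can therefore be followed as a whole into BXD_H, and levels of the other members in BXD_H were not analysed here.

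**Figure D2:**
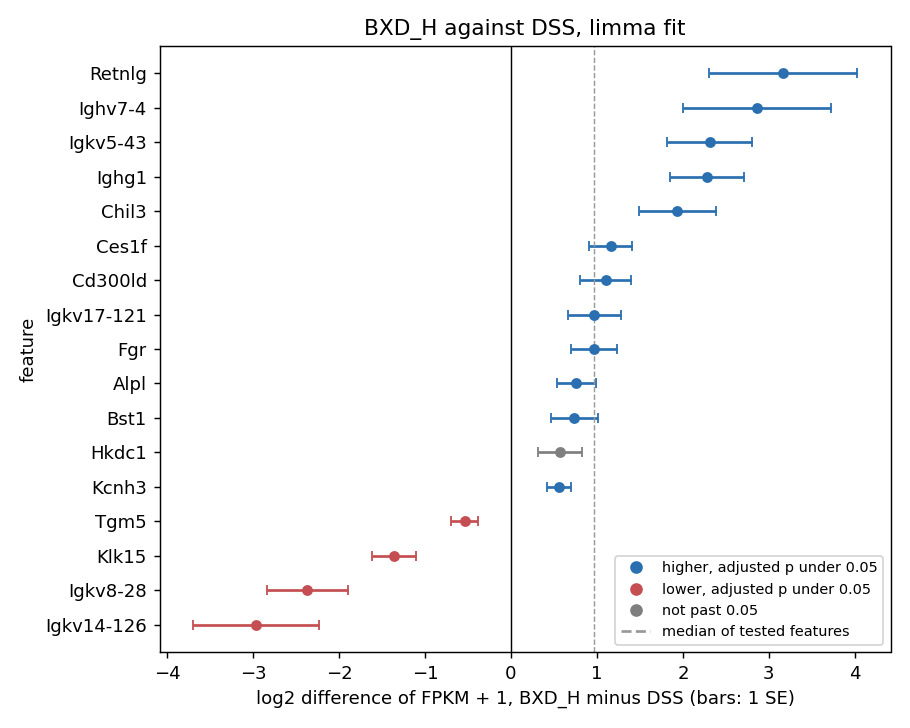
Log2 difference of FPKM + 1 between BXD_H and DSS (horizontal axis) for the 17 tested features, with 1 standard error of the limma fit as bars. Blue marks the 12 features that were higher and red the 4 that were lower at an adjusted p under 0.05, grey marks Hkdc1, and the dashed line is the median of 0.97.

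Of 6 immunoglobulin features, 4 rose and 2 fell, shares close to the 70.6% higher and 23.5% lower of all 17 tested features. Ighg1, the constant gene of the IgG1 heavy chain, stood at 12.1, 7.79 and 9.08 FPKM in DSS and at 111.5, 27.2 and 41.1 FPKM in BXD_H, without overlap and with replicate 1 the highest. It rose by 2.28 (SE 0.43, limma adjusted p = 0.00233), with means 6.21-fold apart. Without BXD_H replicate 1 the rise was 1.71 and the means were 3.54-fold apart. Ighg1 was the single member of the B and plasma cell list, of 25 genes, in both sets of files. Ighg1 (ENSMUSG00000076614) lies on chromosome 12 from 113325240 to 113330523.

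Igkv5-43, the segment printed first above, stood at 53.6, 100.1 and 80.1 FPKM in DSS and at 346, 222 and 705 FPKM in BXD_H, a rise of 2.31 (SE 0.49, limma adjusted p = 0.00291). At 705 FPKM in replicate 3 it was the most abundant of the 95 high-dose features in that library. Ighv7-4 stood at 16.2, 16.5 and 10.3 FPKM in DSS and at 134, 444 and 20.6 FPKM in BXD_H. Its BXD_H libraries spanned 21.5-fold against 1.61-fold in DSS, and the lowest stood only just above DSS. The rise was 2.86 (SE 0.86, limma adjusted p = 0.00840), and it was 1.85 without BXD_H replicate 2 and 4.03 without BXD_H replicate 3. Igkv17-121 stood at 32.5, 26.7 and 31.8 FPKM in DSS and at 76.8, 72.8 and 38.8 FPKM in BXD_H, the smallest rise of a V segment (0.97, SE 0.31, limma adjusted p = 0.0115). Fitted on the 6 libraries and the shared features alone, its limma adjusted p was 0.127.

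The segments that fell were both kappa segments. Igkv14-126 stood at 13.8, 101 and 92.4 FPKM in DSS and at 9.73, 2.15 and 7.65 FPKM in BXD_H (change −2.97, SE 0.73, limma adjusted p = 0.00484). DSS replicate 1, the lowest DSS library, stood near the highest BXD_H library. Igkv8-28 stood at 78.6, 182 and 62.9 FPKM in DSS and at 23.2, 12.2 and 20.02 FPKM in BXD_H, a change of −2.37 (SE 0.47, limma adjusted p = 0.00233) with a clear gap between the groups. The shared segments did not peak in the same library. Among the 5, BXD_H replicate 1 was highest for 3 (Igkv14-126, Igkv17-121 and Igkv8-28), replicate 2 for Ighv7-4 and replicate 3 for Igkv5-43.

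The remaining 6 genes were in none of the groups above, and no role is given here for B430306N03Rik. Ces1f, a carboxylesterase that hydrolyses esters and many drugs, was the single member of the 38-gene xenobiotic and retinol list in both sets of files. It stood at 3.16, 2.98 and 4.96 FPKM in DSS and at 9.55, 7.80 and 10.8 FPKM in BXD_H, 160 fragments or more in each library. The rise was 1.16 (SE 0.25, limma adjusted p = 0.00291), and the BXD_H libraries were closely spaced, spanning 1.39-fold. Control libraries stood at 8.68 to 12.6 FPKM, so BXD_H overlapped Control, and the difference of DSS from Control was −1.27. The comparisons of BXD_H with DSS and of DSS with Control share the DSS libraries, so the 2 differences are not independent. Hkdc1, a hexokinase-family protein, stood at 0.21, 0.19 and 0.28 FPKM in DSS, 16 to 28 fragments, and at 0.68, 0.25 and 1.85 FPKM in BXD_H, where replicate 2 fell within the DSS range. Its difference of 0.57 (SE 0.26) did not pass (limma adjusted p = 0.0506), and it passed without BXD_H replicate 2 (0.84, adjusted p = 0.0103). Hkdc1 stood at 0.74 to 1.47 FPKM in Control.

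Klk15, a kallikrein-family serine protease, stood at 2.59, 2.97 and 1.32 FPKM in DSS and at 0.18, 0.23 and 0.34 FPKM in BXD_H, only 3 to 4 fragments per BXD_H library. The change was −1.36 (SE 0.25, limma adjusted p = 0.00233), with the DSS mean 9.17-fold above that of BXD_H. Tgm5, a transglutaminase, stood at 1.13, 1.45 and 1.54 FPKM in DSS and at 0.50, 0.82 and 0.59 FPKM in BXD_H, a change of −0.54 (SE 0.16, limma adjusted p = 0.00807). Both groups were narrow for Tgm5 and did not overlap. Only its DSS libraries reached 1 FPKM, so the filter itself favoured a fall. With no filter its limma adjusted p was 0.00966. Kcnh3, a voltage-gated potassium channel, stood at 0.23, 0.48 and 0.64 FPKM in DSS and at 1.24, 1.09 and 1.04 FPKM in BXD_H (rise 0.56, SE 0.14, limma adjusted p = 0.00541), with the smallest spread in BXD_H of all 19 features (coefficient of variation 9.27%). Only its BXD_H libraries reached 1 FPKM, so the filter itself favoured a rise. With no filter its limma adjusted p was 0.00411. B430306N03Rik, a protein-coding gene on chromosome 17 from 48316141 to 48327024, did not pass the filter and stood at 0.43, 0.41 and 0.36 FPKM in DSS and at 0.53, 0.92 and 1.12 FPKM in BXD_H. Klk15, Tgm5, Kcnh3 and Bst1 overlap annotated genes of the opposite strand (Gm44756, Gm14213, Mcrs1 and Fbxl5). No source used here says whether counting used strand, so their reads cannot be told from those of these partners.

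Set beside Control, the shared features stood as follows, with Alox5, Ces1f and Hkdc1 given above. For Retnlg, Ighg1, Ighv7-4, Igkv5-43 and Chil3, the Control means were 0.253, 1.91, 3.06, 26.9 and 0.0767 FPKM, below the DSS means of 5.64, 9.65, 14.3, 77.9 and 0.617 FPKM and the BXD_H means of 100.1, 59.9, 199.7, 424 and 6.06 FPKM. For Igkv14-126 and Igkv8-28, the Control means of 1.31 and 6.71 FPKM lay below the BXD_H means of 6.51 and 18.5 FPKM and the DSS means of 69.04 and 107.8 FPKM. All BXD_H libraries of Igkv8-28 lay above all Control libraries, whereas those of Igkv14-126 overlapped them. Klk15 stood at 0.15, 1.07 and 0.97 FPKM in Control and overlapped BXD_H. The Control values of Chil3 rest on 1 to 3 fragments per library and those of Retnlg on 2 to 3.

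For most of the 19 features, the BXD_H libraries differed from each other more than the DSS libraries did. The SD of log2(FPKM + 1) was larger in BXD_H than in DSS for 14 of the 19 features, with medians of 0.544 in BXD_H, 0.292 in DSS and 0.163 in Control. This SD is compressed at low FPKM, so the order of the groups depends on level as well as on spread. Kcnh3 had a smaller SD in Control (0.149) than in DSS (0.210) but a larger coefficient of variation (110 against 45.9%). For Chil3 the SD was larger in BXD_H than in DSS (1.13 against 0.461) and the coefficient of variation smaller (67.0 against 87.1%). Replicate 3 was the highest BXD_H library for 12 of the 19 features, and DSS replicate 2 the highest DSS library for 12.

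Across the BXD_H libraries, groups of genes were followed among all 95 high-dose features. The first was made up of 14 genes known from neutrophils, monocytes and macrophages, grouped by known function after their values were seen (Retnlg, Chil3, Ngp, Mmp8, Ifitm6, Tarm1, Fgr, Cd300ld, Cd300lb, C5ar1, Sirpb1b, Alox5, Pstpip2 and Bst1). All 14 were highest in BXD_H replicate 3 and lowest in replicate 1. Since they were chosen with their values in view, this describes them and tests nothing, and 23 of the other 81 features had the same order. Ccl8 and Cd244a, also made by immune cells, were not in the group and did not have that order. Ngp, the neutrophilic granule protein, stood at 0.76, 4.23 and 17.5 FPKM, a 23.0-fold span that rested on 16, 94 and 265 fragments. Mmp8, the neutrophil collagenase, stood at 1.22, 9.25 and 21.7 FPKM and Ifitm6, an interferon-induced transmembrane family member of myeloid cells, at 1.73, 8.50 and 23.7 FPKM. C5ar1, the receptor for complement fragment C5a, spanned less, at 6.30, 7.63 and 15.0 FPKM. The order of these genes followed that of Retnlg and Chil3, so the libraries in which those 2 stood farthest above DSS were also those with most Ngp, Mmp8 and Ifitm6. Whether myeloid content accounts for the spread was not tested.

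**Figure D3:**
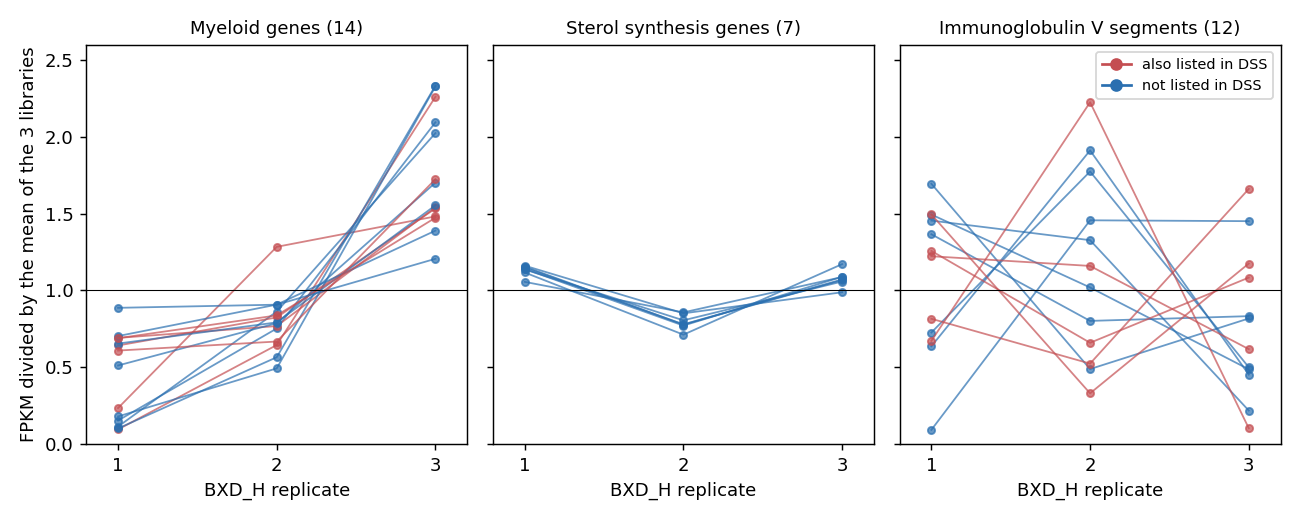
FPKM of each gene divided by its mean over the 3 BXD_H libraries (vertical axis), by replicate, for 14 myeloid genes, 7 sterol genes and 12 V segments. Lines join the values of one gene and imply no order of the replicates; the myeloid genes are all highest in replicate 3, the sterol genes are all lowest in replicate 2, and the V segments show no common order.

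The sterol genes kept closer together: 7 enzymes of cholesterol synthesis (Hmgcs1, Fdft1, Sqle, Lss, Cyp51, Msmo1 and Hsd17b7) were all lowest in replicate 2, against 27 of 85 other features. Their coefficients of variation were 12.5 to 25.1%, and their means ran from 7.71 FPKM for Lss to 112 FPKM for Hmgcs1.

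The 12 V segments of the high-dose files followed no common order. Replicate 1 was highest for 7 of them, replicate 2 for 4 and replicate 3 for 1, and their coefficients of variation were 30.8 to 110%. Among the 7 not listed in DSS, Ighv5-17 stood at 158, 475 and 112 FPKM, Ighv5-16 at 112, 274 and 77.3 FPKM, Ighv1-7 at 241, 164 and 78.4 FPKM and Ighv1-12 at 15.2, 239 and 238 FPKM. Ighv1-12 was thus nearly equal in replicates 2 and 3 and 15.7-fold lower in replicate 1 than in replicate 2. Ighv5-16 and Ighv5-17 were high and low in the same libraries, whereas Ighv1-7 and Ighv1-12 were not. The 12 segments made up 52.4, 64.4 and 49.3% of the FPKM listed in BXD_H replicates 1, 2 and 3.

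Of the 76 features with no value in DSS, 65 are protein-coding genes, 7 are V segments, 2 are processed pseudogenes, 1 (Pla2g2a) is annotated as a polymorphic pseudogene and 1 is an identifier not in the annotation used. Their median level was 1.96 FPKM and the median coefficient of variation 34.6%. Levels under 1 FPKM were found for 21 of them and levels of 20 FPKM or more for 14. Since no DSS value was listed, these genes carry no direction.

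**Figure D4:**
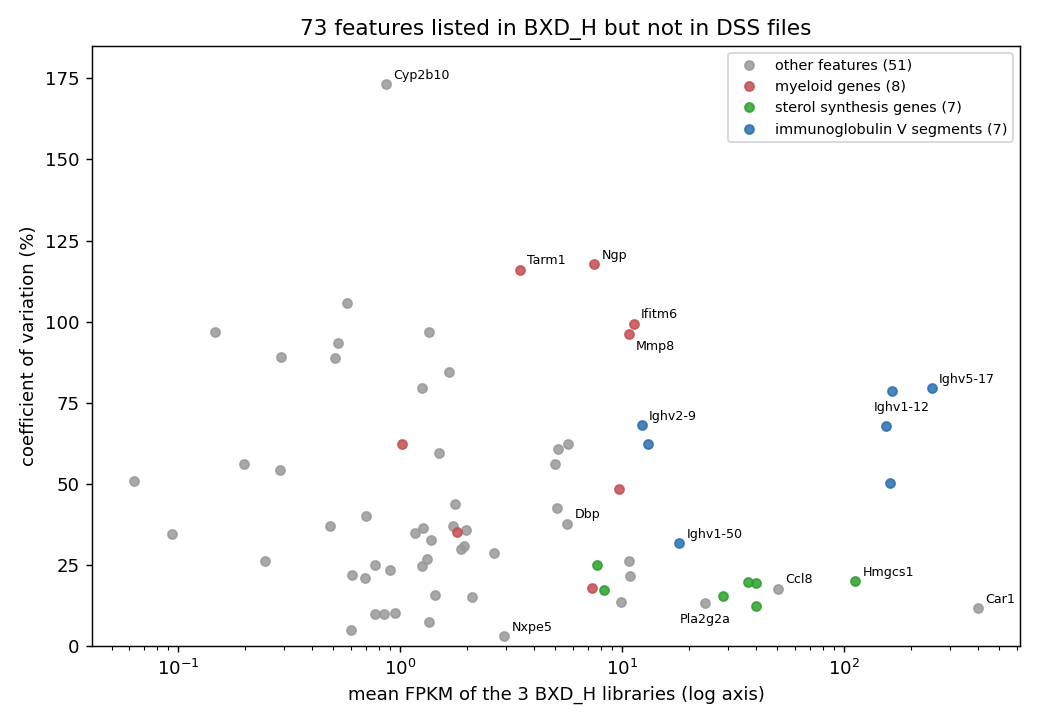
Coefficient of variation in percent (vertical axis) against mean FPKM of the 3 BXD_H libraries (horizontal log axis) for 73 of the 76 features listed in BXD_H but not in DSS. Each point is a feature, coloured by group: the sterol genes lie at 12.5 to 25.1%, most V segments and several myeloid genes lie above 50%, and Car1 combines the highest mean, 402 FPKM, with 11.6%.

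Several genes varied little between BXD_H libraries. Among the features without a DSS value that had a mean of at least 5 FPKM, Car1 (11.6%), Fdft1 (12.5%) and Pla2g2a (13.3%) were among the 5 with the smallest coefficient of variation. Pla2g2a, a secreted phospholipase, stood at 20.4, 26.7 and 23.5 FPKM. Ccl8, a monocyte-attracting chemokine, stood at 40.7, 58.1 and 52.8 FPKM and was the single high-dose member of 39 cytokine and chemokine genes. Cyp2c65, a cytochrome P450 of the gut, stood at 9.61, 9.38 and 13.6 FPKM. Scnn1g, a subunit of the epithelial sodium channel, stood at 1.34, 1.93 and 2.53 FPKM. More variable were Aldh1a2, a retinoic acid synthesis enzyme (2.41, 4.54 and 7.93 FPKM), and F10, coagulation factor X (0.38, 0.83 and 2.83 FPKM). Pla2g2a, Fdft1, Hmgcs1, Lss, Cyp51, Aldh1a2, Dbp, Cd300lb, Cd244a, Sirpb1b and Pstpip2 overlap annotated genes of the opposite strand, so the same limit holds for them. The 5 largest coefficients of variation at this level belonged to Ngp (118%), Ifitm6 (99.4%), Mmp8 (96.3%), Ighv5-17 (79.5%) and Ighv1-12 (78.6%).

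Both features shared with the low-dose files overlapped between the doses. Dbp, a clock-output transcription factor, stood at 3.94, 4.90 and 5.96 FPKM in BXD_L and at 7.72, 3.45 and 5.84 FPKM in BXD_H. Ighv2-9 stood at 9.25, 1.67 and 7.01 FPKM in BXD_L and at 17.8, 16.2 and 2.67 FPKM in BXD_H. Neither has a value in DSS, so no change from DSS can be given for either dose.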

How the data were processed

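RNA of mouse colon was sequenced in 12 libraries. Per the labels' protocols, TRIzol extraction was followed by a NEBNext Ultra preparation. The submitters' processing notes name bcl2fastq, FastQC, fastp and the build mm10; the aligner, counting program, use of strand, annotation release and listing rule were not given in the sources used here. Per the file headers, the authors deposited FPKM with 2 decimals per library for part of the genes, so the values account for gene length and sequencing depth, and differences in composition remain. Groups follow the titles.

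From these files, 94 of the 95 high-dose features matched GENCODE M21 by identifier. Library totals came from genes with exons under 1200 bases, as the smallest total between 5000000 and 30000000 at which nearly as many FPKM as at the best total gave whole fragments within rounding plus 2%: 76.5 to 92.5% of 17 to 120 genes in the DSS and BXD_H libraries, against a median of 5.88 to 10.1% over all totals scanned. A multiple of a total would give whole fragments as well.

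Log2(FPKM + 1) was fitted with limma 3.58.1 (R 4.3.3), 1 mean per group over 12 libraries, each feature using the libraries in which it is listed. A trended prior was estimated from 622 features. Each shared feature thus had a single estimate of spread over Control, DSS and BXD_H, although the SD above was mostly larger in BXD_H. P-values are two-sided and Benjamini-Hochberg adjusted over the 17 features tested, with no allowance for the unstated rule that chose the listed features. The fit was run on simulated data with the same spread in all groups and most features unchanged. The listed features differ from that in both respects, so the run does not bear on their p-values. An exact permutation test of 3 against 3 cannot go below 0.10 and was not used. No 2 BXD_H libraries shared more than 1 equal value. All shared features are named. Of the other high-dose features, members of 39 gene lists, the 10 highest, the 5 least and 5 most variable at 5 FPKM or more and those shared with the low dose are named, except 3 features not reported here. The members and lists were chosen with earlier results of these data known.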

Additional observations from a re-analysis of the deposited data

How the results depend on the processing

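Directions and calls were recomputed with a pseudocount of 0.1 or 0.5, no low-value filter, an untrended prior, the replicate block, the 6 libraries alone, without the libraries of conflicting description (Control replicate 3 and DSS replicate 3) and without each DSS and BXD_H library in turn. Under these the number of calls stayed between 14 and 18, and no tested feature changed direction. Leaving out 1 library gave 14 to 16 calls among 15 or 16 tested features, 10 to 12 higher and 3 to 4 lower, and 18 to 19 features without overlap. Tgm5 failed the filter when any DSS library was left out, and Kcnh3 when any BXD_H library was. Part of the fall in calls is therefore features that were no longer tested. Without both libraries of conflicting description, 14 of 15 tested features passed, and Bst1 (0.63) did not. In the fit of the 6 libraries alone 14 of 16 passed, and Bst1 and Igkv17-121 did not. That fit left out the Control and BXD_L libraries and also took its prior from those 16 features alone. The limma adjusted p was larger for every feature tested in it, and the effects of these changes were not separated. Among those that passed it ran from 0.00264 (Klk15) to 0.0424 (Fgr), with 0.0195 for Ighg1 and 0.0297 for Retnlg. Hkdc1 passed with a pseudocount of 0.1 or 0.5. Same-numbered DSS and BXD_H libraries did not deviate together (r = −0.25, −0.11 and −0.16 over the 19 features). Pairs of unlike number ran from −0.42 to 0.56, so these values cannot decide whether the numbers pair the libraries. The replicate block gave 16 calls again, 12 higher and 4 lower.

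Centring on the median of the 19 features left 4 calls, with 0 higher and 4 lower, and 9 features without overlap. It turned the direction of Hkdc1 (−0.46), Kcnh3 (−0.47), Bst1 (−0.29), Alpl (−0.26), Fgr (−0.057) and Igkv17-121 (−0.055). This shift is built in, since most of the 19 features rose. Ranking by the SD of log2(FPKM + 1) kept 4 of the 5 most and 4 of the 5 least variable features. Klk15 in BXD_H and Retnlg in Control rest on 2 to 4 fragments per library, and Chil3 in Control on 1 to 3. At least 1 Control library of Klk15, Kcnh3, Igkv14-126, Tgm5 and B430306N03Rik also held 3 fragments or fewer.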

Other observations

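Cyp2b10, a cytochrome P450 known for induction through the nuclear receptor CAR in liver, was chosen here after its values were seen. It was listed at 0 in BXD_H replicates 1 and 2 and at 2.59 FPKM in replicate 3, about 68 fragments. Replicate 3 was also the highest library for Slc13a1, a sulfate transporter (0.36, 0.14 and 1.08 FPKM), and Sycp2, a synaptonemal complex protein (0.21, 0.29 and 1.03 FPKM), likewise chosen after their values were seen. Slc3a1, an amino acid transporter subunit, stood highest in replicate 1 (8.77, 3.15 and 3.55 FPKM), as did the calcium channel Trpv6 (2.45, 1.30 and 1.41 FPKM). Slc13a1 and Slc3a1 overlap annotated genes of the opposite strand. At the other end, Nxpe5 stood at 2.84, 3.01 and 2.97 FPKM, the smallest coefficient of variation of the 76 features without a DSS value (3.02%).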
